A study of Homo sapiens with 16 samples.

Results

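The Entinostat response was examined in HCT116 cells, a human colorectal cancer line, in which the p53 gene had been deleted (p53-/-, called p53-null here). Of the 16 RNA sequencing libraries of the series, the 8 p53-null ones were used. In 4 of them the cells had received Entinostat, either 2.5 µM alone (2 libraries) or together with Nutlin-3A (2 libraries, called the combination). In the other 4 they had received the vehicle DMSO (2 libraries) or 5 µM Nutlin-3A alone (2 libraries). All treatments lasted 8 hours. The libraries were chosen by their labels and by no measured value, and the concentrations within the combination are not given separately in the labels. The 8 libraries of p53 wild-type HCT116 (p53+/+) under the same 4 treatments served for comparison. The series as a whole asks how activation of p53 combines with loss of FLIPL, a product of CFLAR. Each group had replicates 1 and 2. The labels say neither that these were separate cultures nor whether the p53-null line is a single clone. Each p-value therefore measures the spread between libraries, which may be technical. In the gene-by-gene model that spread came from all 16 libraries, the wild-type ones included.

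Entinostat is a benzamide that inhibits class I histone deacetylases (HDACs), the enzymes that remove acetyl groups from histone tails within corepressor complexes such as NuRD, Sin3 and CoREST. Acetylation that persists at promoters and enhancers is associated with transcription, and HDAC inhibitors are known to raise many genes that a tissue keeps low, to lower others, and to raise the cell cycle inhibitor p21 (the product of CDKN1A) without p53. Nutlin-3A occupies the p53 pocket of MDM2, the ubiquitin ligase that marks p53 for destruction. Cells without p53 lack the protein that the drug would release, and the libraries with and without Nutlin-3A were pooled on each side of the Entinostat comparison.

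Expression was given as RPKM, reads per kilobase of gene scaled to the mapped reads of the library. Alignments per library ran from 50413000 to 52539200 with Entinostat and from 48143500 to 53074700 without it in p53-null cells, and from 45902800 to 55507300 over the 16 libraries. Of the colon epithelial markers, EPCAM, KRT8, KRT18, KRT19, CDH1, CDX2 and VIL1, only VIL1 was near 0. Their summed level was 2310 to 2660 RPKM with Entinostat and 1720 to 2210 RPKM without it. Of 16 markers of blood, endothelial, stromal, muscle and liver cells, 13 stayed under 0.5 RPKM in all 8 libraries, and CD3E and HBB were listed at 0 in each. The other 3, CD68, COL1A1 and ACTA2, rose by 0.62, 0.73 and 0.83 on the log2 scale, and the 16 together summed to 11.3 to 13.4 RPKM with Entinostat and 5.97 to 8.16 RPKM without it; their part in the results was not tested. In bulk RNA, fewer cells of a type and less RNA per cell cannot be told apart. The replicate 1 libraries with Entinostat stood apart from replicate 2. Genes that Entinostat raised in wild-type cells (3065 genes) changed in p53-null cells by a median log2 value of 0.53 in replicate 1 and 0.40 in replicate 2. The 3086 genes that were lower in wild-type cells changed by -0.40 in replicate 1 and -0.25 in replicate 2. The cause was not tested, and values are therefore given per library for the main genes.

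The genes used as markers of the treatment were CTGF, CDKN1A and CYP24A1, to which CFLAR was added. Of all tested genes, CTGF had the largest rise and CYP24A1 the largest fall in this same comparison. Their calls are therefore not separate support for their use as markers. CTGF encodes a secreted matrix-associated protein and is a well known target of the YAP and TEAD factors. It had 41.9 and 12.4 RPKM under Entinostat (replicates 1 and 2) and 54.3 and 16.8 RPKM under the combination, against 2.70 and 2.27 RPKM in DMSO and 2.72 and 2.63 RPKM in Nutlin-3A. The lowest library with Entinostat lay above the highest without it, and replicate 1 was well above replicate 2 in both Entinostat groups. The means were 31.4 ± 20.1 RPKM with Entinostat and 2.58 ± 0.21 RPKM without it (SD, n = 4 each), a ratio of 12.1. On the log2(RPKM + 0.5) scale the change was 3.12 ± 0.47 (SE), with an adjusted p of 3.0e-04 in a limma model over all genes.

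CDKN1A, which encodes p21, a brake on cyclin-dependent kinases and a classical p53 target, had 91.0 and 49.9 RPKM under Entinostat and 100.2 and 54.5 RPKM under the combination. It had 23.7 and 14.1 RPKM in DMSO and 26.9 and 16.7 RPKM in Nutlin-3A. The groups did not overlap, and replicate 1 was higher in each of the 4 treatments. The change was 1.81 ± 0.26 (SE) on the log2 scale (adjusted p = 2.6e-04), a ratio of means of 3.63.

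CYP24A1, the hydroxylase that inactivates vitamin D, went the other way. It had 3.59 and 11.7 RPKM under Entinostat and 3.72 and 10.5 RPKM under the combination, against 28.6 and 38.4 RPKM in DMSO and 30.5 and 41.0 RPKM in Nutlin-3A. Every library with Entinostat was below every library without it. CYP24A1 fell by 2.32 ± 0.44 (SE) on the log2 scale (adjusted p = 0.0012), and its mean without Entinostat was 4.69 times that with it.

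CFLAR encodes the FLIP proteins, which restrain caspase-8 at death receptors; the gene-level values do not separate its long and short forms. It had 1.16 and 1.43 RPKM under Entinostat and 1.19 and 1.65 RPKM under the combination, against 2.17 and 2.32 RPKM in DMSO and 2.42 and 2.38 RPKM in Nutlin-3A. Again no libraries overlapped, and the change was -0.61 ± 0.12 (SE) on the log2 scale (adjusted p = 0.0015). For these 4 genes the change with Nutlin-3A present and the change without it were close to each other. CTGF changed by 3.28 (combination against Nutlin-3A) and 2.97 (Entinostat against DMSO), and CFLAR by -0.60 and -0.62. The 95% intervals of the differences between these paired changes were wide, from -1.72 to 2.34 for CTGF and from -0.50 to 0.53 for CFLAR.

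**Figure D1:**
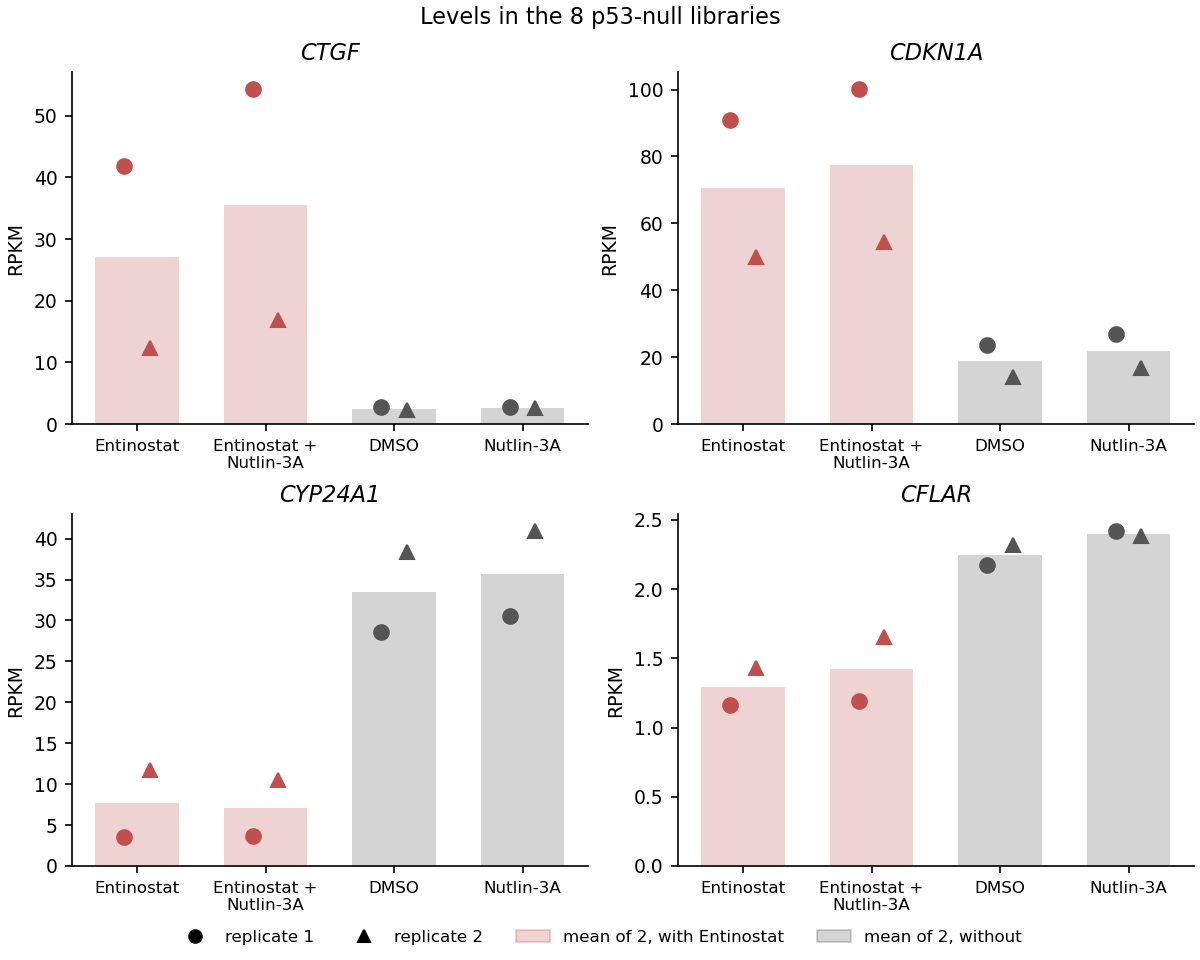
RPKM of CTGF, CDKN1A, CYP24A1 and CFLAR in the 8 p53-null libraries, with replicate 1 as circles, replicate 2 as triangles and the mean of 2 libraries as bars on axes that start at 0. All 4 libraries with Entinostat lie above those without it for CTGF and CDKN1A and below them for CYP24A1 and CFLAR, and the CTGF rise is larger in replicate 1.

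The promoters of the treatment marker with the largest rise, of CDKN1A and of PDE4B, the gene with the largest fall that had a promoter entry, are shown to set the response beside the sequence (RefSeq, GRCh38.p14, 250 bases before to 50 after the gene start, 5′ to 3′ on the gene's strand). Capitals mark 3 motifs searched on both strands: the GC box GGGCGG, bound by Sp1-family factors, the TEAD motif GGAATG, and the TATA box TATAAA. The first, listed in RefSeq as CCN2, lies at chr6:131951323-131951622 on the minus strand, the second at chr6:36678464-36678763 on the plus strand and the third at chr1:65792260-65792559 on the plus strand.
CTGF: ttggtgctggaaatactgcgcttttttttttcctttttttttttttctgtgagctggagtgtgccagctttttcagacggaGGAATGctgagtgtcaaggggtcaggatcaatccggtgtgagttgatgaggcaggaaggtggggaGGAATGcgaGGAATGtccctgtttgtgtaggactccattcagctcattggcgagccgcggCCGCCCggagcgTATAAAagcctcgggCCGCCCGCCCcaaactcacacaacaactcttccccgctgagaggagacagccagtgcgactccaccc
CDKN1A: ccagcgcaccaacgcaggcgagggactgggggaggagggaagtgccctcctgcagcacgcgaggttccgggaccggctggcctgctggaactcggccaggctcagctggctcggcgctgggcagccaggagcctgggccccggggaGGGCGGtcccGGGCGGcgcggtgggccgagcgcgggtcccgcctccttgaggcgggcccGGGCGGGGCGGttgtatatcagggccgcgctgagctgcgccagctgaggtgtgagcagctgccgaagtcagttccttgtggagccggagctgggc
PDE4B: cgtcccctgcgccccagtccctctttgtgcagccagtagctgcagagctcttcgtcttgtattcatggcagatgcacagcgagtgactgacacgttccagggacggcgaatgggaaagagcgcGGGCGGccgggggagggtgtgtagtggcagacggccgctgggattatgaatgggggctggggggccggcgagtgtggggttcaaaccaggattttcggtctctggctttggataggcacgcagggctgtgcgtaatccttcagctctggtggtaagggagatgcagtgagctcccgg
The CTGF window held 3 TEAD motifs, which start 169, 104 and 95 bases before the gene start, 3 GC boxes of which 2 overlap, and a TATA box 32 bases before the start. The CDKN1A window held 4 GC boxes, 2 of them overlapping, and PDE4B had 1. GC boxes occurred in 44.6%, TEAD motifs in 14% and TATA boxes in 12% of 27305 RefSeq promoters of this length. A match describes letters in this window and is not evidence of binding.

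Across the genome the response was broad. Of 20612 genes, 12466 had a mean of at least 0.5 RPKM over the 16 libraries and were tested. Entinostat raised 3055 of them (24.5%) and lowered 2604 (20.9%), 5659 together (45.4%), at an adjusted p under 0.05. The rises were the larger changes: 307 genes rose and 36 fell by at least 2-fold. The filter mean includes the libraries with Entinostat, so a gene near 0 in all libraries without the drug could be tested only through a rise. Of 303 tested genes at up to 0.5 RPKM in wild-type cells without Entinostat, 71.6% were called higher and 0.99% lower in p53-null cells. The excess of large rises was not separated from this effect of the filter. The median log2 change over all tested genes was 0.02, and after median of ratios scaling it was -0.03 (2646 genes higher, 3232 lower), so that the direction with more genes depended on the scaling. Without the Entinostat replicate 1 library 4182 genes were called, and without combination replicate 1 4113. Within replicate 1 alone 7740 were called and within replicate 2 alone 3185. These fits took the Entinostat and combination libraries of a replicate number as replicates of each other, and the DMSO and Nutlin-3A libraries likewise. Their p-values measure the spread between treatments within that replicate number, so their counts are not comparable with the 5659.

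Entinostat against DMSO called 3520 genes (28.2%) and the combination against Nutlin-3A 2912 (23.4%). These comparisons share no library, although they share replicate numbers. Of the genes called, 2429 were called in both, which is 69% of the first and 83.4% of the second, and 0 of these moved in opposite directions. Across the 12466 genes the log2 changes had a Pearson r of 0.925 and a Spearman rho of 0.906, where genes are not independent replicates. Blocking on the replicate number gave 5677 and 5141 calls. The difference between the 2 effects, tested gene by gene as an interaction in limma, was called for 0 genes, with 75 genes at an unadjusted p under 0.05. With the replicate block it was also 0, with 287 unadjusted, and without the filter on low values 10 genes were called. The combination against Nutlin-3A split into 1696 genes higher (13.6%) and 1216 lower (9.75%). Under median of ratios scaling this became 1436 higher and 1710 lower, and quantile-normalized values gave 1011 and 1092.

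**Figure D2:**
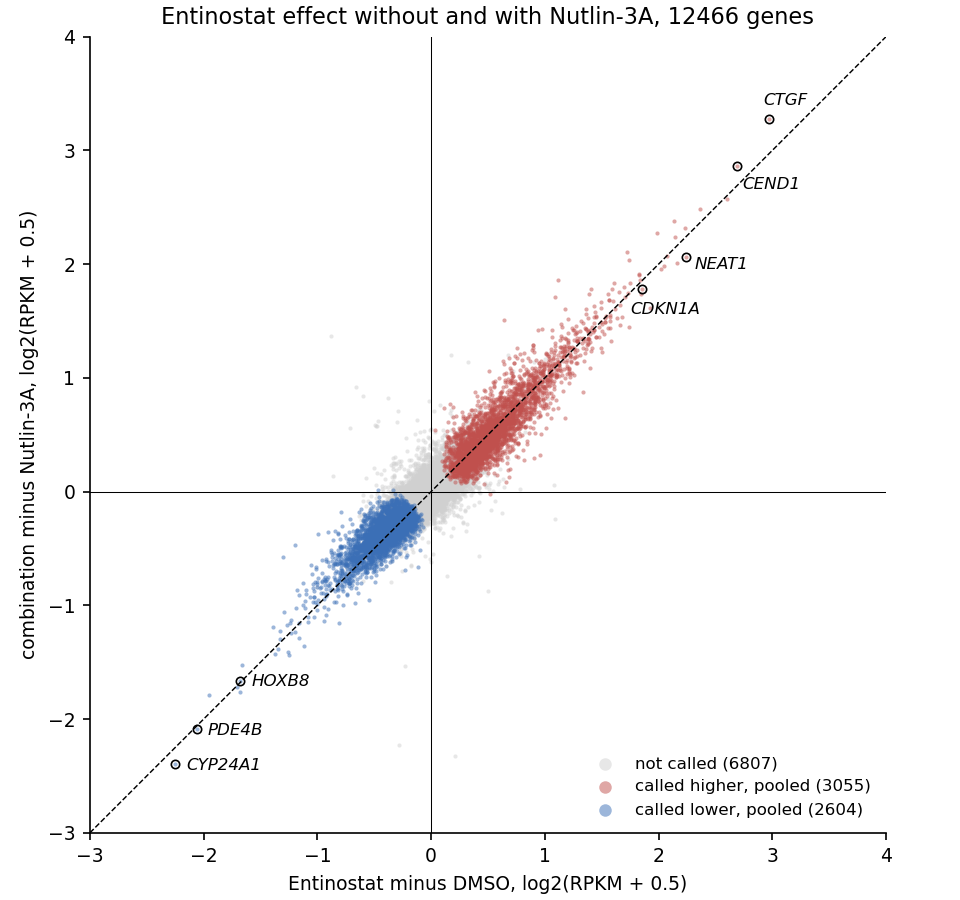
Log2 change of each of 12466 genes for Entinostat against DMSO (horizontal) and the combination against Nutlin-3A (vertical) in p53-null cells, coloured by the call in the pooled comparison (3055 higher, 2604 lower); the dashed line marks equal changes. Called genes lie along the line, with CTGF and CEND1 at the upper end and CYP24A1 at the lower.

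The largest rises after CTGF were those of CEND1, DHRS2 and EPPK1. CEND1, a neuronal protein linked to cell cycle exit, had 7.27 and 2.52 RPKM under Entinostat and 7.86 and 2.21 RPKM under the combination, against 0.334 and 0.176 RPKM in DMSO and 0.14 and 0.169 RPKM in Nutlin-3A. This was the highest ratio among the top rises, 24.3, and its log2 change was 2.78 ± 0.46 (adjusted p = 5.7e-04). CEND1 was under 0.5 RPKM in all libraries without Entinostat, so it passed the filter only through libraries with the drug. The same holds for CXCR4 and HEY1 below. DHRS2, a short-chain dehydrogenase, averaged 34.6 ± 15.4 RPKM with Entinostat and 4.90 ± 0.28 RPKM without it (log2 change 2.59). EPPK1, which encodes the cytolinker epiplakin, averaged 16.4 ± 3.88 RPKM with Entinostat and 2.59 ± 0.26 RPKM without it. Its change of 2.42 ± 0.15 (SE) was the most precisely measured of these rises (adjusted p = 5.1e-06).

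NGFR, the low-affinity neurotrophin receptor, averaged 15.5 ± 7.82 RPKM with Entinostat and 2.57 ± 0.76 RPKM without it (log2 change 2.27). CXCR4, the receptor of the chemokine CXCL12, averaged 2.99 ± 1.39 RPKM with Entinostat and 0.188 ± 0.064 RPKM without it (2.26). RGS2, which shortens signals from G protein-coupled receptors, had 15.9, 9.44, 14.6 and 9.77 RPKM with Entinostat and 2.66, 2.42, 2.51 and 2.41 RPKM without it. For each of the 3 genes the lowest library with Entinostat exceeded the highest without it.

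NEAT1, the long noncoding RNA around which paraspeckles form, departed from the other top rises in its replicates. It had 12.4 and 14.6 RPKM under Entinostat and 14.4 and 17.8 RPKM under the combination, against 2.15 and 2.79 RPKM in DMSO and 2.90 and 4.12 RPKM in Nutlin-3A. Its level was higher in replicate 2 in every group, and its change was nearly the same in replicates 1 and 2, at 2.21 and 2.09 (adjusted p = 1.0e-05). HEY1, a repressor induced by Notch, averaged 2.65 ± 1.02 RPKM with Entinostat and 0.17 ± 0.10 RPKM without it. The other top rises were VGF, a neuropeptide precursor (log2 change 2.13), ZCCHC12, a zinc finger protein (2.09), and MAP2, a microtubule-associated protein of dendrites (2.02).

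The largest falls were smaller than the largest rises, and the first of them was that of CYP24A1 above. PDE4B, a phosphodiesterase that degrades cAMP, had 1.63 and 3.71 RPKM under Entinostat and 1.45 and 4.11 RPKM under the combination, against 12.4 and 11.6 RPKM in DMSO and 12.1 and 12.4 RPKM in Nutlin-3A. The libraries without Entinostat lay close together, whereas those with it split by replicate number, with the lower values in replicate 1. PDE4B fell by 2.08 ± 0.30 (SE) on the log2 scale (adjusted p = 2.4e-04). HS3ST1, a sulfotransferase that modifies heparan sulfate, averaged 15.1 ± 4.42 RPKM with Entinostat and 55.1 ± 5.14 RPKM without it (log2 change -1.87). LTBR, the lymphotoxin beta receptor, averaged 9.93 ± 1.78 RPKM with Entinostat and 30.8 ± 3.80 RPKM without it (-1.59).

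Several transcription factor genes were among these falls. HOXB8 had 3.79, 5.17, 3.47 and 5.24 RPKM with Entinostat and 16.3, 14.4, 14.7 and 14.5 RPKM without it, a change of -1.67 ± 0.15 (adjusted p = 2.0e-05). TFAP4, a factor induced by MYC, averaged 6.41 ± 1.31 RPKM with Entinostat and 16.5 ± 0.90 RPKM without it (-1.31). The zinc finger genes ZBTB2 and ZBED2 changed by -1.71 and -1.36. HOXA10-AS, an antisense transcript, changed by -1.73; no label states strand-aware counting, so its reads cannot be told from those of the genes it overlaps. Of the ligands, EREG (epiregulin, which binds EGFR) changed by -1.34 and KITLG (stem cell factor, which binds KIT) by -1.33. The adhesion gene PCDH7 changed by -1.4.

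**Figure D3:**
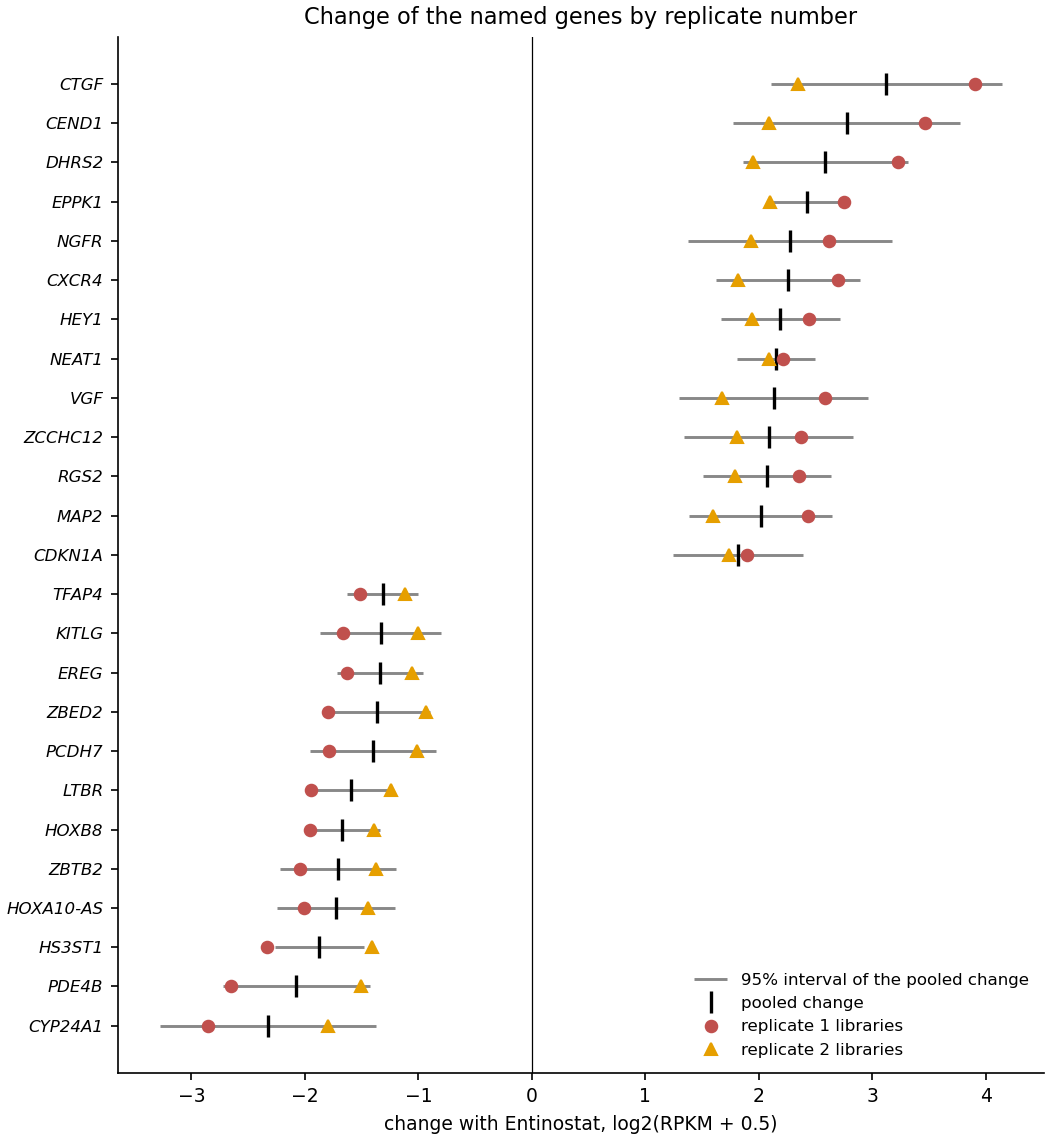
Change with Entinostat on the log2(RPKM + 0.5) scale for the 12 largest rises, the 12 largest falls and CDKN1A, with the pooled change (bar), its 95% interval (grey line) and the change within replicate 1 (circles) and replicate 2 (triangles). Every gene moved in one direction in both replicates, and the change was larger in replicate 1 for each of them; NEAT1 shows the smallest gap, 2.21 and 2.09.

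The gene lists below were described by counts against the background of 24.5% higher and 20.9% lower. That background belongs to the main fit. Over all tested genes the replicate block gave 3927 higher and 3463 lower, and quantile normalization 2316 and 2616. With no filter 3642 genes were higher and 2442 lower, among more genes. Calls over all genes also fell with any p53-null library left out, so a lower list count there is not by itself particular to the list. Among HDACs and their corepressor subunits, 1 of 29 tested genes rose and 9 fell, with a median log2 change of -0.04. The falls included MBD3 (20.9 ± 2.21 RPKM with Entinostat and 35.4 ± 5.37 RPKM without it) and MTA2 (28.2 ± 3.16 and 44.7 ± 2.50 RPKM), both subunits of the NuRD complex, and HDAC7, a class IIa deacetylase (-0.69). The single rise was HDAC5, also class IIa (0.56). Of the class I deacetylases that the drug binds, only HDAC1 and HDAC3 are given here, so the values do not describe the class as a whole. HDAC1 had 139 RPKM with Entinostat and 129 RPKM without it (log2 change 0.11, adjusted p = 0.32) and HDAC3 46.1 and 39.9 RPKM (0.20, adjusted p = 0.11). With the replicate block both passed the threshold (adjusted p = 0.038 and 0.0038) and the list had 5 higher and 10 lower. Without Entinostat replicate 1, 5 of its genes were lower, without Entinostat or combination replicate 2, 2 were higher, and without Nutlin-3A replicate 2, 3 were higher and 6 lower.

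Of the 8 CDK inhibitor genes, 3 rose and 1 fell (median 0.43). Besides CDKN1A, CDKN2B, which encodes the CDK4 and CDK6 inhibitor p15, had 4.61, 2.80, 4.56 and 2.63 RPKM with Entinostat and 0.901, 0.996, 1.11 and 0.778 RPKM without it (log2 change 1.49). CDKN1B, which encodes p27, was lower, with 7.21 ± 0.59 RPKM with Entinostat and 12.9 ± 1.10 RPKM without it (-0.80). With the replicate block, or without Entinostat replicate 2 or DMSO replicate 1, 5 of the 8 rose. Of 16 tested cyclins and G1 kinases 2 rose and 4 fell. Cyclin genes moved in both directions, CCNB1 by -0.57, CCNE2 by 0.56 and CCND3 by 0.52, and CDK4 by -0.37. The block gave 4 higher and 8 lower, and the falls numbered 2 when DMSO or Nutlin-3A replicate 2, or either replicate 1 library with Entinostat, was left out.

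The DNA replication and mitotic lists were taken as proliferation genes. In the main fit their share of falls was near the 20.9% of all tested genes, and their share of rises was under 24.5%. In the DNA replication list 3 of 34 rose and 8 fell (median -0.12). MCM5 and MCM2, subunits of the replicative helicase, had 61.3 ± 9.88 and 62.7 ± 8.55 RPKM with Entinostat and 90.9 ± 8.53 and 89.0 ± 7.16 RPKM without it. CDT1, which loads the helicase, changed by -0.56. The replicate block gave 6 higher and 13 lower, median of ratios scaling 0 and 13 and quantile normalization 6 and 6, and without either replicate 1 library with Entinostat the list had 0 and 5. In the mitotic list 1 of 33 rose and 8 fell (median -0.02), the falls led by the mitotic kinases AURKA (27.4 ± 2.06 RPKM with Entinostat and 46.6 ± 1.95 RPKM without it) and PLK1 (54.4 ± 1.98 and 88.5 ± 4.86 RPKM). Their libraries did not overlap. MKI67, a general proliferation marker, had 64.8 RPKM with Entinostat and 64.0 RPKM without it and was not called.

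The list with the most falls was that of MYC and ribosome biogenesis, in which 33 of 43 genes fell and 2 rose (median -0.45, against 0.02 over all genes tested). MYBBP1A, a nucleolar regulator of ribosomal RNA synthesis, had 14.6, 19.8, 14.1 and 19.99 RPKM with Entinostat and 31.7, 35.9, 32.8 and 30.4 RPKM without it (log2 change -0.93 ± 0.13). WDR74, PPAN and NOP16, factors of large ribosomal subunit assembly, changed by -0.91, -0.84 and -0.80, each with libraries that did not overlap. Leaving out single libraries left 25 to 34 falls, and 1 rise without Entinostat replicate 1, combination replicate 1, DMSO replicate 2 or either Nutlin-3A library. The 20 tested genes of ribosomal proteins themselves had 0 calls and a median of -0.02 (0 higher and 1 lower with the block).

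The list named replication-independent histones also holds genes of the HIST1 and HIST2 clusters, and expression outside S phase was not tested. Of 19 tested, 9 rose, 1 fell and 9 were not called (median 0.48). Quantile normalization gave 6 higher and 1 lower (median 0.26), and with no filter 6 of 23 rose and 1 fell (median 0.29). H1FX, a linker histone gene, had 168, 105, 160.4 and 108 RPKM with Entinostat and 74.6, 58.9, 67.1 and 55.0 RPKM without it (log2 change 1.05), and HIST1H2AC, a core histone gene, averaged 3.37 ± 0.90 RPKM with Entinostat and 1.45 ± 0.23 RPKM without it (0.97). Copies of HIST1 genes are nearly identical, so reads may be split among them, and many histone transcripts lack the poly(A) tail that the library kit selects. Without Entinostat replicate 1, combination replicate 1 or DMSO replicate 2, 5 rose.

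Of 17 tested neuronal genes 14 rose and 0 fell (median 0.96); 22 of the 39 in the table were below the filter. The filter uses a mean that includes the libraries with Entinostat, so a gene such as CEND1 could pass through the group where it is high. With no filter 15 of the 39 rose and 0 fell, and the median was 0.15. CEND1, NGFR, VGF and MAP2 led it. VGF had 114, 47.8, 124 and 49.2 RPKM with Entinostat and 20.5, 16.3, 18.4 and 13.5 RPKM without it, and MAP2 had 5.64, 2.30, 6.16 and 2.59 RPKM with Entinostat and 0.605, 0.409, 0.769 and 0.537 RPKM without it. In both genes replicate 1 showed the higher level with Entinostat. STMN3, a stathmin, had 32.3 RPKM with Entinostat and 39.4 RPKM without it (not called; adjusted p = 0.012 with the block). The list had 14 rises and 1 fall with the block and 13 and 1 after median of ratios scaling. Without DMSO replicate 2 or Nutlin-3A replicate 2 it had 12 rises and 1 fall.

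**Figure D4:**
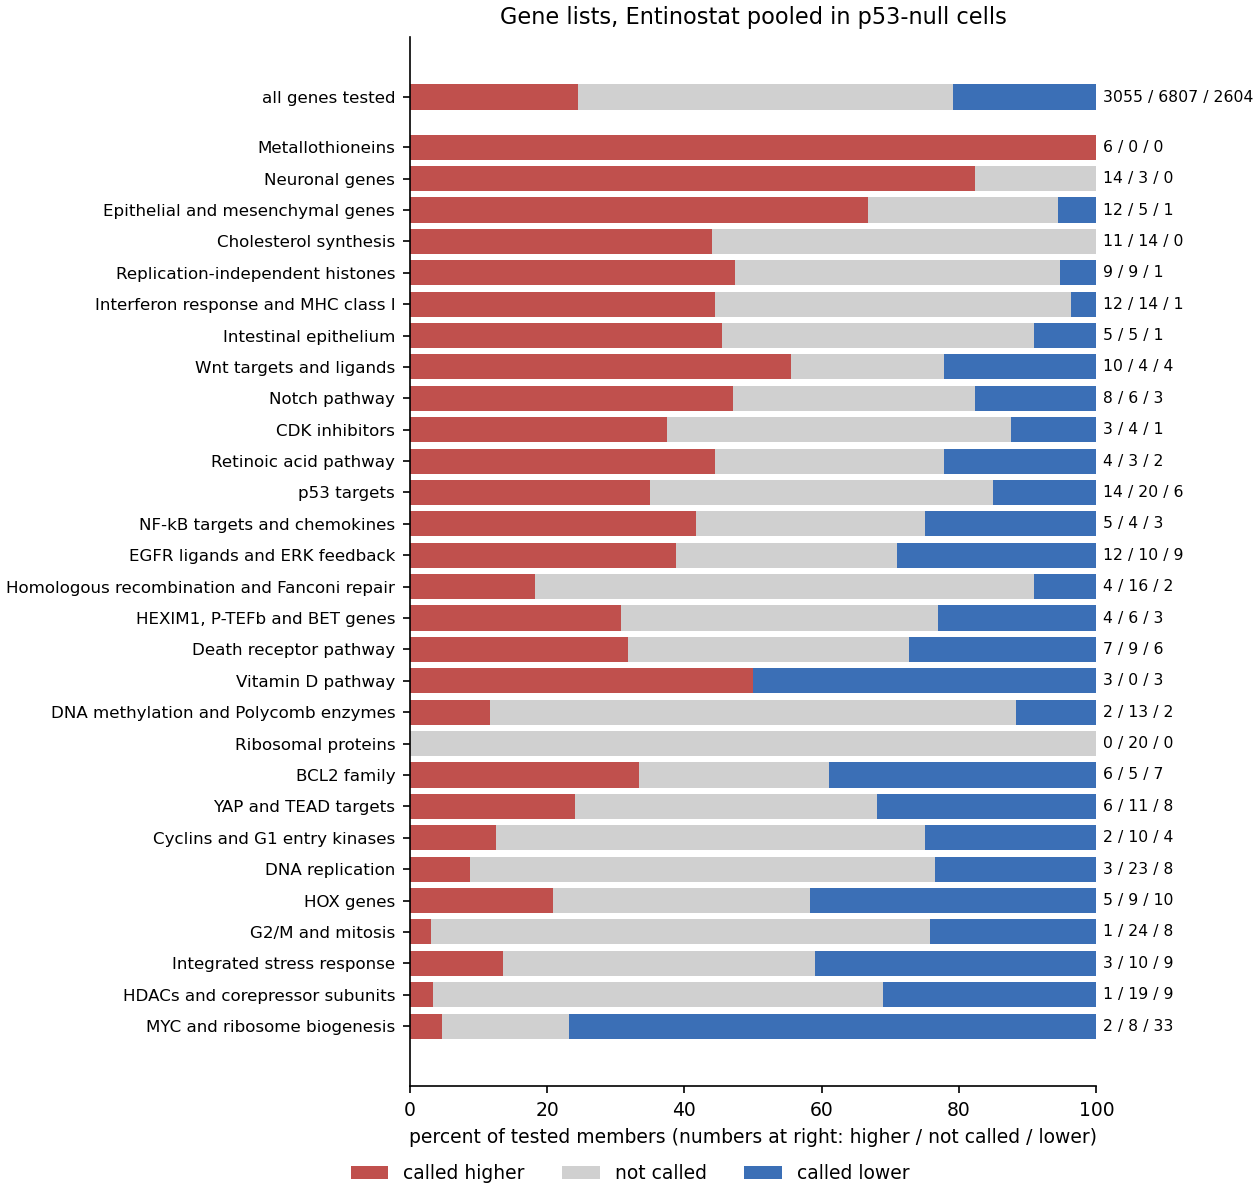
Share of each list's tested members that were higher (red), not called (grey) and lower (blue) with Entinostat in p53-null cells, ordered by the higher minus the lower share, with the counts at the right and all 12466 tested genes on top (3055 higher, 2604 lower). The metallothionein and neuronal lists have no fall, and 33 of 43 genes of MYC and ribosome biogenesis are lower.

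The marker genes CTGF and CYP24A1 were set beside their pathways. Of 25 tested YAP and TEAD targets and pathway genes 6 rose and 8 fell (median 0.03). Next to CTGF only CYR61, its close relative, rose by more than 1 on the log2 scale, with 52.7, 27.6, 64.7 and 35.7 RPKM with Entinostat and 13.4, 14.9, 14.6 and 12.7 RPKM without it. AJUBA, a scaffold protein of the Hippo pathway, and TEAD2, a TEAD factor, were lower (-0.70 and -0.57), and YAP1 had 17.2 RPKM with Entinostat and 20.9 RPKM without it (not called; lower under the block). All 6 tested vitamin D genes were called, 3 in each direction. CYP2R1, which starts the activation of vitamin D, and VDR, its receptor, rose by 1.08 and 0.67, and CYP27B1, the activating hydroxylase, by 0.54, while CYP24A1 fell. The remaining genes called lower were RXRA and RXRB. Of 9 retinoic acid genes 4 rose and 2 fell. CYP26B1, which degrades retinoic acid, rose by 0.77 and DHRS3, which reduces retinal, changed by -0.90.

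HOX genes set position along the body axis in the embryo. Of 24 tested, 5 rose and 10 fell (median -0.29). Next to HOXB8, HOXB4 was lower, with 4.08 ± 0.67 RPKM with Entinostat and 7.93 ± 0.97 RPKM without it. HOXD8 rose by 1.03.

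Death receptor and BCL2 genes were of interest because of CFLAR. Of 22 tested death receptor genes 7 rose and 6 fell (median -0.02). Besides CFLAR the receptors TNFRSF1A (TNF receptor 1) and TNFRSF10A (TRAIL receptor 1) were lower, at 20.6 ± 0.59 and 13.7 ± 1.36 RPKM with Entinostat and 31.8 ± 4.86 and 20.1 ± 0.95 RPKM without it. BIRC3, which encodes the inhibitor of apoptosis cIAP2, had 1.51, 1.30, 1.46 and 1.32 RPKM with Entinostat and 0.348, 0.275, 0.322 and 0.391 RPKM without it (log2 change 1.19, adjusted p = 1.4e-05). TNFRSF10B (TRAIL receptor 2) averaged 29.8 RPKM with Entinostat and 30.1 RPKM without it and CASP8 5.17 and 6.29 RPKM; neither was called, and CASP8 was lower under the block. Without Entinostat replicate 1, combination replicate 1 or DMSO replicate 2, 4 genes of the list rose. Of 18 BCL2 family genes 6 rose and 7 fell, and with no filter 5 of 19 rose and 7 fell. BMF below, like BIRC3 above, was under 0.5 RPKM in all p53-null libraries without Entinostat. Rises included the BH3-only genes BMF (1.01 ± 0.28 RPKM with Entinostat and 0.218 ± 0.065 RPKM without it), PMAIP1 (46.0 ± 7.91 and 21.9 ± 3.04 RPKM) and BCL2L11 (5.51 ± 0.08 and 3.10 ± 0.30 RPKM), whose products promote apoptosis, and BCL2 itself, which restrains it (0.58; adjusted p = 0.089 with quantile normalization).

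Of 40 tested p53 target genes, 14 rose and 6 fell in these cells without p53 (35% higher, 15% lower, against 24.5% and 20.9% of all genes). CDKN1A, PMAIP1 and CYFIP2, an actin regulator (0.92), were higher and KITLG was lower. MDM2 had 16.4 RPKM with Entinostat and 17.4 RPKM without it, and FAS 1.96 and 1.47 RPKM, neither called. Without Entinostat replicate 1, combination replicate 1 or DMSO replicate 2, 9 rose. PMAIP1 is in this list and in the BCL2 list, and TNFRSF10A here and in the death receptor list, so these counts overlap.

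Among growth factor and pathway genes, 12 of 31 EGFR ligand and ERK feedback genes rose and 9 fell (median 0.24). The largest called changes of the list were rises of the immediate early genes JUN, ATF3 and IER2 and the fall of the ligand gene EREG. JUN had 20.1, 10.8, 21.6 and 11.6 RPKM with Entinostat and 6.06, 5.78, 5.94 and 5.32 RPKM without it. ATF3 rose by 1.18 and IER2 by 0.99. Values of the other immediate early genes in the list are not given here. Of 18 Wnt targets and ligands 10 rose and 4 fell (median 0.52). The ligand genes WNT9A and WNT6 rose by 1.02 and 1.00, SP5, a Wnt-induced factor, by 0.95 and DACT1, a regulator of Dishevelled, by 0.73. Without either replicate 1 library with Entinostat, DMSO replicate 2 or Nutlin-3A replicate 2, 2 of the Wnt genes fell. Of 17 Notch genes 8 rose and 3 fell (median 0.43). The ligand gene DLL4 rose, with 2.85, 1.76, 2.98 and 1.76 RPKM with Entinostat and 0.506, 0.362, 0.382 and 0.36 RPKM without it, the receptor gene NOTCH3 by 0.70, and the target HEY1 as above.

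Of 18 epithelial and mesenchymal genes 12 rose and 1 fell (median 0.51), and the rises covered both kinds. With no filter 12 of 24 rose and 1 fell, and the median was 0.28. SNAI2, a repressor of epithelial genes, had 1.72, 0.693, 2.18 and 0.557 RPKM with Entinostat and 0.10, 0, 0.0729 and 0.113 RPKM without it. The p53-null libraries without Entinostat were thus all under 0.5 RPKM, and SNAI2 passed the filter only through other libraries. FN1, fibronectin, averaged 5.08 ± 1.87 RPKM with Entinostat and 1.66 ± 0.59 RPKM without it. CLDN3, a tight junction gene, rose by 1.10, a call that was lost without Entinostat replicate 1 or DMSO replicate 2 (adjusted p = 0.052 in either case). Of 11 tested intestinal genes 5 rose and 1 fell. ELF3, an epithelial factor, had 18.7, 17.7, 19.6 and 18.7 RPKM with Entinostat and 8.73, 6.63, 7.35 and 6.66 RPKM without it. CA2, carbonic anhydrase 2, rose by 1.4, KLF5 by 0.45, and CDX2, the intestinal homeobox factor, was lower with 3.39 ± 0.24 RPKM with Entinostat and 6.13 ± 0.22 RPKM without it. Without combination replicate 1, 3 rose.

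In the cholesterol list 11 of 25 genes rose and 0 fell (median 0.28). TM7SF2 and SQLE, enzymes of sterol synthesis, averaged 13 ± 3.56 and 17.6 ± 1.14 RPKM with Entinostat and 4.41 ± 0.45 and 9.05 ± 0.73 RPKM without it, and INSIG1, a sterol sensor partner, rose by 1.32. The rises numbered 6 when DMSO or Nutlin-3A replicate 2, or either replicate 1 library with Entinostat, was left out. All 6 tested metallothionein and zinc genes rose (median 0.67). MT2A had 1332, 740.1, 1702 and 876 RPKM with Entinostat and 596, 480.4, 659 and 404 RPKM without it, and MT1X, a close paralog with which it may share reads, rose by 1.24. Without either replicate 1 library with Entinostat, 3 of the 6 rose. Of 27 interferon and MHC class I genes 12 rose and 1 fell (median 0.23), among them IFI6 (1.18) and HERC5 (0.90). Quantile normalization gave 4 higher and 4 lower, where all tested genes gave 2316 and 2616, so the excess of rises depended on the scaling. The rises were 7 without Entinostat replicate 1, combination replicate 1 or DMSO replicate 2, and the fall was called in 2 of the 8 sets with a library left out. Of 12 NF-kB genes 5 rose and 3 fell; CXCL8, an inflammatory chemokine, rose by 0.97 and NFKB1, an NF-kB subunit, changed by -0.75.

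The remaining lists cover stress, transcription elongation, chromatin and DNA repair. Of 22 integrated stress response genes 3 rose and 9 fell (median -0.14), with TRIB3 and STC2, targets of ATF4, at -0.69 and -0.60; the block gave 5 and 11, and without either replicate 1 library with Entinostat 2 rose and 5 fell. Of 13 genes of HEXIM1, P-TEFb and BET proteins 4 rose and 3 fell, with the elongation factor genes ELL2 and AFF1 at 0.87 and 0.77 and MEPCE, which caps the 7SK RNA, at -0.62. Median of ratios scaling gave 4 and 5. Of 17 DNA methylation and Polycomb genes 2 rose and 2 fell, and without Entinostat replicate 1 none of them was called (0 and 0). Of 22 homologous recombination and Fanconi genes 4 rose and 2 fell, with FANCB and RAD54B at 0.56 and 0.49 and FANCG at -0.43. The block gave 4 and 5 and median of ratios scaling 3 and 5. Quantile normalization also moved other lists by more than 1.5 times: HDACs and corepressors to 5 higher and 8 lower, cyclins to 2 and 2, mitotic genes to 3 and 7, HOX genes to 3 and 14, the death receptor list to 4 and 7, the stress response to 4 and 5, HEXIM1 and BET genes to 5 and 5, and MYC and ribosome biogenesis to 1 and 26. With no filter the cholesterol list had 7 rises and 0 falls, vitamin D genes 5 and 3 of 11, Wnt genes 12 and 2 of 26, and DNA replication 0 and 7. Among homologous recombination and Fanconi genes 1 fell with quantile normalization or no filter, and without Entinostat replicate 1, combination replicate 1, DMSO replicate 2, Nutlin-3A replicate 1 or Nutlin-3A replicate 2.

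More genes were detected with Entinostat. The number of genes listed at 0 was 3212 to 3525 with Entinostat and 4245 to 4403 without it, and the ranges did not overlap (exact two-sided permutation test, p = 0.0286, the smallest that 4 against 4 libraries can give). Alignments did not separate the groups (exact two-sided permutation test, p = 0.429). Genes with at least 1 RPKM numbered 11471 to 11586 with Entinostat and 11021 to 11071 without it. Of 1523 genes at 0 in all 4 libraries with Entinostat, 3 were above 0 in all 4 without it, and of 2703 genes at 0 in all 4 without it, 98 were above 0 in all 4 with it. Among the 8146 genes below the filter, 991 (12.2%) were higher in all 4 libraries with Entinostat than in any without it and 45 (0.552%) lower. A gene at 0 in any library without Entinostat could not count as lower here. Likewise a gene at 0 in any library with it could not count as higher. How far this floor set the low share of falls was not tested. For the tested genes these shares were 24.2% and 20.6%.

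The level of each gene was then taken from wild-type cells without Entinostat, which are libraries outside the comparison. The share of genes that were higher was largest at low but detectable levels. It was 2.47% of 2472 genes at 0 in those libraries, 13.8% of 4005 genes up to 0.1 RPKM and 31.6% of 1863 genes between 0.1 and 0.5 RPKM. Rises and falls at these levels were limited by the floor described above. Of 1198 genes between 1 and 2 RPKM, 42.1% were higher in all 4 p53-null libraries with Entinostat and 5.18% lower. Between 5 and 10 RPKM the shares were 22.5% and 19.7%. Of 1897 genes between 20 and 50 RPKM, 9.44% were higher and 36.8% lower. Above 100 RPKM they were 6.93% and 24.2%. RPKM values within a library are relative to its total, and a change in the total RNA per cell cannot be seen in them.

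**Figure D5:**
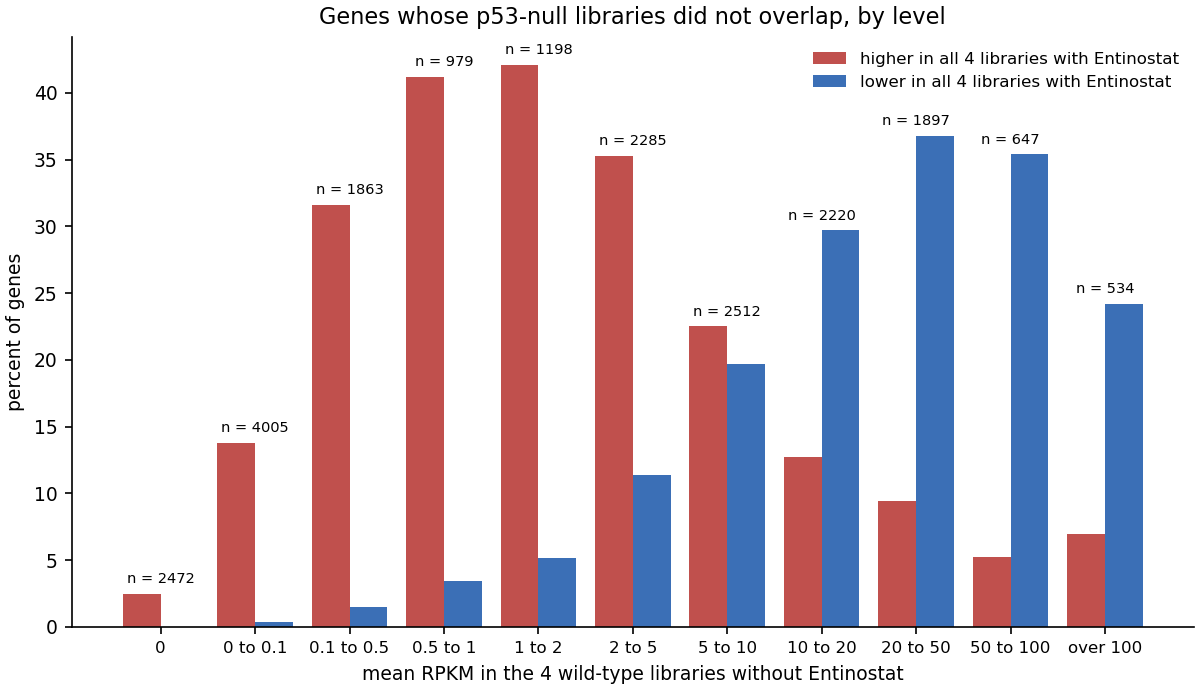
Percent of genes whose 4 p53-null libraries with Entinostat all lie above (red) or all below (blue) the 4 without it, by mean RPKM in the 4 wild-type libraries without Entinostat, for all genes with no filter; n is the number of genes per level. The share higher peaks at 42.1% between 1 and 2 RPKM and the share lower at 36.8% between 20 and 50 RPKM.

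Higher and lower genes also differed in their length in the genome. The median span from gene start to end (RefSeq, GRCh38) was 44.7 kb for genes that rose, 19.2 kb for genes that fell and 29.5 kb for genes not called, with a span found for 98.8%, 99.2% and 98.3% of them. Among genes between 10 and 50 RPKM in wild-type cells the order was kept, at 41.5, 18.9 and 31.1 kb, and above 50 RPKM the medians were 16.9, 11.6 and 13.1 kb. These spans are a description across genes, with no test.

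The response was compared with that of wild-type cells, in which the same pooled comparison raised 3065 and lowered 3086 genes (6151, or 49.3%). Of the genes called, 4561 were called in both genotypes, which is 80.6% of the p53-null and 74.2% of the wild-type calls, and 9 of them had opposite signs. Across 12466 genes the changes had a Pearson r of 0.899 and a Spearman rho of 0.881. The difference between the genotypes was called for 7 genes (0.0562%), 6 with the larger value in p53-null cells (0.0481%) and 1 with the smaller (0.00802%), and 102 with the replicate block. With quantile normalization, or from the groups without Nutlin-3A alone, it was called for 0 genes, and with 1 library left out for 0 to 31. The groups without Nutlin-3A hold fewer libraries, and the cause of the lost calls was not tested.

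For SESN1, DSC3, UNC5B-AS1 and CNTNAP3 both wild-type Nutlin-3A libraries lay above both wild-type DMSO libraries. SESN1, a stress-induced regulator of mTORC1 and a p53 target, had 3.68, 3.24, 3.64 and 3.23 RPKM in p53-null cells with Entinostat and 1.70, 1.59, 1.73 and 1.89 RPKM in those without it. In wild-type cells it had 4.67 and 4.13 RPKM under Entinostat, 16 and 16.9 RPKM under the combination, 4.49 and 3.56 RPKM in DMSO and 23.1 and 21.5 RPKM in Nutlin-3A. It rose in p53-null cells (log2 change 0.83) and not detectably in wild-type cells (-0.15, adjusted p = 0.15), and the difference was 0.98 ± 0.12 (SE, adjusted p = 0.016). From the groups without Nutlin-3A the difference was 0.76 (adjusted p = 1.0). DSC3, a desmosomal cadherin, rose in p53-null cells (0.762 ± 0.038 RPKM with Entinostat and 0.408 ± 0.087 RPKM without it), against a change of -0.72 in wild-type cells, a difference of 1.20 ± 0.14 (SE).

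UNC5B-AS1, an antisense transcript whose reads cannot be told from those of its overlapping gene, had 0.799, 0.377, 0.611 and 0.968 RPKM with Entinostat and 0.196, 0.128, 0.119 and 0.184 RPKM without it in p53-null cells, and a difference of 1.59 ± 0.23 (SE).

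MKX and NECTIN3 lacked that order in wild-type cells. MKX, a homeobox factor of tendon, was lower in both genotypes, by -0.86 in p53-null and -2.23 in wild-type cells. NECTIN3, an adhesion molecule, had 6.60, 9.19, 6.94 and 8.77 RPKM with Entinostat and 15.6, 14.6, 15.7 and 17.3 RPKM without it in p53-null cells. In wild-type cells it had 3.86, 3.77, 2.73 and 2.85 RPKM with Entinostat and 3.47, 3.27, 3.23 and 3.06 RPKM without it, a difference between the changes of -0.98 ± 0.14 (SE, adjusted p = 0.040). CNTNAP3, below the level set for naming genes and named after its values were seen, had 1.51, 1.49, 1.56 and 1.52 RPKM with Entinostat and 0.819, 0.732, 0.81 and 0.594 RPKM without it in p53-null cells (difference 0.87). In wild-type cells it had 3.25 and 3.22 RPKM in Nutlin-3A, against 2.29 and 2.36 RPKM in DMSO.

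CDKN1A and RGS2 were not called in the test between genotypes but were called with the replicate block. CDKN1A had 121 and 104 RPKM under Entinostat and 1069 and 722 RPKM under the combination in wild-type cells, against 89.2 and 66.1 RPKM in DMSO and 1059 and 763 RPKM in Nutlin-3A. Its change of 1.81 in p53-null cells stood beside 0.26 in wild-type cells (adjusted p = 0.44, and 0.025 with the block), a difference of 1.56 ± 0.37 (SE, adjusted p = 0.25, and 8.5e-05 with the block). RGS2 in wild-type cells had 34.9, 22.1, 33.6 and 22 RPKM with Entinostat and 36.1, 18.4, 25.1 and 14.6 RPKM without it, where the libraries overlapped. Its change of 2.07 in p53-null cells stood beside 0.30 in wild-type cells, a difference of 1.77 ± 0.37 (SE, adjusted p = 0.15, and 4.1e-04 with the block). CTGF, CYP24A1 and CFLAR changed in wild-type cells by 3.69, -1.86 and -0.97, and their differences from the p53-null changes were not called with or without the block.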

How the data were processed

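RNA was extracted from HCT116 cells and made into stranded polyadenylated RNA libraries, per the labels' protocols. The authors deposited 1 table of RPKM values for 20612 genes in 16 libraries, with the alignments counted per library, per the file headers. The submitters' processing notes name Bowtie2, Partek and hg19; the sources used here give no versions, gene models, read filters or strand handling. Columns were matched to samples by name.

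The model and lists were chosen with earlier results of these data known. Values were taken as log2(RPKM + 0.5), a scale that understates the change of low genes, and genes with a mean of at least 0.5 RPKM over 16 libraries were tested (12466, 60.5%). limma 3.58.1 in R 4.3.3 fitted 8 group means with a trended variance prior (8 residual and 4.09 prior degrees of freedom; 7 and 5.97 with the replicate block). The pooled comparison is the mean of the Entinostat and combination groups minus that of the DMSO and Nutlin-3A groups. p-values were Benjamini-Hochberg adjusted over all tested genes and called under 0.05. Folds are ratios of mean RPKM. Group levels were compared with exact permutation tests (scipy 1.17.1).

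Genes named are CDKN1A, CTGF, CYP24A1, CFLAR, the 12 largest called rises and falls with at least 1 RPKM and libraries that did not overlap, up to 4 called members per list, and up to 5 called differences between genotypes each way. Members that were not called are given by value only. Some items that the rule allows are not reported here.

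The replicate 1 minus replicate 2 differences of all genes were correlated between groups. For the 6 pairs of p53-null groups r ran from 0.384 to 0.778, and it was over 0.1 in all 28 pairs of groups. The main fit did not include the replicate number, so its p-values leave this pairing out. The replicate block, run as an alternative, takes it in and gave 7390 pooled calls, against 5659 in the main fit. On simulated data with known changes the pooled comparison recovered 73.1%, 95.5% and 100% of log2 changes of 0.5, 1 and 2, with 4.28% of 187 calls false. In the simulation only 67, 67 and 66 of 12466 genes carried these changes, and the noise was independent between libraries. The real comparison called many more genes and its replicate differences were correlated between groups, so these rates do not carry over to it. The alternatives were the replicate block, pseudocounts of 0.1 and 1, no filter and a filter of 1 RPKM, median of ratios and quantile scaling, fits to the p53-null libraries alone, and each library left out in turn. Fits within each replicate number were added after the data were seen. They compared the Entinostat and combination libraries, taken as replicates of each other, with the DMSO and Nutlin-3A libraries, taken likewise. RefSeq promoter entries were found for 79.6% of tested genes, under the 80% needed to compare promoter content between sets, so no such comparison was made.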

Additional observations from a re-analysis of the deposited data

Results flagged for a closer look

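Within the groups of 4 p53-null libraries, the highest or lowest library was tested for its distance from the others in 254 groups of named genes. Chance gives about 1 in 20 groups, a rate that is only nominal because each group mixes treatments and replicate numbers. In 7 of the 254 groups a library stood apart, fewer than that rate would give. With Entinostat this was SQLE at 15.9 RPKM in combination replicate 2. Without Entinostat they were PCDH7 at 8.19, KITLG at 152, VDR at 3.73 and HEXIM2 at 1.6 RPKM, all in Nutlin-3A replicate 2, UBE2C at 120 RPKM in DMSO replicate 2 and DLL4 at 0.506 RPKM in DMSO replicate 1.

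The change with Entinostat differed between p53-null and wild-type cells in a direct test for UNC5B-AS1 (1.59), MKX (1.38), DSC3 (1.20), SESN1 (0.98) and NECTIN3 (-0.98), each on the log2 scale. Each of these 5 calls was lost when 1 of 7 to 14 libraries was left out, with quantile normalization and from the groups without Nutlin-3A.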

How the results depend on the processing

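No result of a named gene reversed under the alternatives run. Of 122 genes named for the pooled comparison, 104 kept their call with each p53-null library left out and 18 lost it at least once; 0 lost it with the replicate block, 9 with quantile normalization, 4 with median of ratios scaling and 13 within replicate 2 alone (adjusted p 0.061 to 0.34). The block raised the calls to 5677 for Entinostat against DMSO, 5141 for the combination against Nutlin-3A and 102 for p53-null minus wild-type, and ended no pooled call among the named genes, while HDAC1, HDAC3, STMN3, YAP1 and CASP8 were not called without it and passed the threshold with it. The genotype difference had 12 calls with a pseudocount of 1, 41 without the filter, 14 with median of ratios scaling, 0 with quantile normalization and 0 from the groups without Nutlin-3A. The interaction with Nutlin-3A had 10 calls without the filter. Fitted to the 8 p53-null libraries alone, the pooled comparison had 5222 calls. Entinostat against DMSO then had 2890 and the combination against Nutlin-3A 2136. Within replicate 2, where different treatments served as replicates of each other, 3185 genes were called. With 1 library left out, calls ran from 4113 to 5526 (pooled), 838 to 3482 (Entinostat against DMSO, lowest without Entinostat replicate 1; 2024 and 1601 without DMSO replicate 1 or 2), 413 to 2903 (combination against Nutlin-3A, lowest without combination replicate 1; 1137 and 1653 without Nutlin-3A replicate 1 or 2), 4671 to 6476 (wild-type) and 0 to 31 (genotype difference). A group with 1 library left is assumed to vary like the others. The cause of these shifts was not tested. With 2 libraries per group and no read counts per gene, small changes can be missed. Of simulated log2 changes of 0.5, 73.1% were recovered, a share that holds only for the simulated setting of few changed genes and independent libraries.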
